A study of Mus musculus with 42 samples.

Results

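Pik3ip1, Foxo3, Ccng2, Klf2, Txnip and Irs2 were followed as a group of 6 genes around the PI3K-Akt-Foxo axis, out of 12345 genes that could be tested on the arrays. They were chosen by their gene symbols on the platform's annotation, as genes tied to Foxo activity and cell quiescence, on all 42 arrays. Their untreated levels and their changes after radiation were part of that choice, so for these 6 genes the values are a description without a test. All 6 genes were measured, by 11 probe sets that carry 1 symbol, and 10 of those passed the filter on low signals.

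The arrays measured total RNA from 21 mouse pre-B cell lines with 7 genotypes, 3 lines of each, untreated and 2 h after 1 Gy of gamma rays from a cesium source. Every line was made by transforming bone marrow of a mouse aged 3 to 5 weeks with a v-abl retrovirus (pMSCV-v-abl), and every mouse, the WT controls included, carried the Em-Bcl2 transgene, which keeps lymphoid cells alive. The mutants were Atm-/- (the kinase that starts the response to DNA breaks), Scid (mutated in DNA-PKcs/Prkdc, an end-joining kinase), Mre11A/A (a hypomorph of the break sensor Mre11), and 53bp1-/-, H2ax-/- and Mdc1-/- (chromatin factors that mark and hold breaks). The labels do not say whether a line is 1 clone. WT lines are numbered 1, 3 and 4, and the lines of each mutant 1, 2 and 3. In each line the untreated and the irradiated array share a number, and a change is the irradiated minus the untreated value of log2(signal + 16).

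PI3K makes a membrane lipid that recruits and activates the kinase Akt, and active Akt phosphorylates Foxo transcription factors and drives them out of the nucleus. When PI3K signaling falls, Foxo factors enter the nucleus and turn on genes of growth arrest, stress resistance and, in B-cell precursors, the Rag recombinase. Pik3ip1 is a membrane protein that binds the catalytic subunit of PI3K and restrains it. Foxo3 is one of the Foxo factors. Ccng2 encodes cyclin G2, an unusual cyclin tied to growth arrest, and Irs2 an adaptor that couples insulin and cytokine receptors to PI3K; both are known Foxo targets. Klf2 is a zinc-finger factor that holds lymphocytes in quiescence and directs their trafficking, and Txnip is an arrestin-like protein that binds thioredoxin and limits glucose uptake.

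The 150 bases before the annotated start site of 5 members are shown because Foxo factors bind a short forkhead motif, and they let a reader see which members carry such letters close to their start. They come from RefSeq (build GRCm38.p6), read 5′ to 3′ in the direction of the gene. Capitals mark matches to the forkhead motif GTAAACA, the insulin response motif CAAAACA and the E-box CACGTG on either strand.

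Pik3ip1, chr11:3330581-3330730, plus strand: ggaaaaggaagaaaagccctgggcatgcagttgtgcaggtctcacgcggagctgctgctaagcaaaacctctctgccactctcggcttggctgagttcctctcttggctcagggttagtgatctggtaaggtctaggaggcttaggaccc

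Foxo3, chr10:42276696-42276845, minus strand: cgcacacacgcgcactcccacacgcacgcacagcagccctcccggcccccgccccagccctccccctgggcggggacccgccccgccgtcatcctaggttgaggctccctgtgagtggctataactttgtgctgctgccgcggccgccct

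Ccng2, chr5:93267423-93267572, plus strand: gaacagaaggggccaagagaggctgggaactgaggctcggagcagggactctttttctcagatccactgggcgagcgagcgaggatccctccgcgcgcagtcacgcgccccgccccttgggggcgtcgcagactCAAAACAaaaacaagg

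Txnip, chr3:96557807-96557956, plus strand: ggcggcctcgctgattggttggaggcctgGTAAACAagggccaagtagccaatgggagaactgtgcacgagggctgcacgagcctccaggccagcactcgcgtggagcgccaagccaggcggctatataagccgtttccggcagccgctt

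Irs2, chr8:11008930-11009079, minus strand: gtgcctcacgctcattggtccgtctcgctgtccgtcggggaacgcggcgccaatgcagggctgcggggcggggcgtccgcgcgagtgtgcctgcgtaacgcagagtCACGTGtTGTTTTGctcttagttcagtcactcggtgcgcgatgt

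All 6 members had a promoter window of 300 bases, 250 before and 50 after the start, in which the same letters were sought on both strands. GTAAACA stood in the window of Txnip alone, 121 bases before the start, and in 3.65% of 32851 such windows of the genome. CAAAACA stood in Ccng2, 16 bases before the start, and in Irs2, 37 bases before it on the opposite strand, against 6.28% of all windows. The Irs2 match lies beside a CACGTG at 44 bases before the start, and CACGTG was in 7.15% of windows. Neither the forkhead, the insulin response nor the E-box letters occurred in the windows of Pik3ip1, Foxo3 and Klf2. CACGAG, letters found in the paired sites that Mondo-type glucose sensors bind, occurred at 85 and 74 bases before the Txnip start and at base 2 after the Foxo3 start, against 6.47% of windows. CCAAT occurred in Txnip and Irs2 (37.4% of windows), and the GC box GGGCGG in 5 of the 6 members, not in Pik3ip1 (35.7% of windows). CACGTG and CACGAG begin with the same 4 bases and are different letters after that. These matches describe letters in a window, and the Pik3ip1 window is that of 1 start site among those the gene may use.

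The deposited signals were scaled to a trimmed mean of 500 on each of the 42 arrays. Array medians lay between 62.58 and 82.94 on 40 arrays and were higher on 2, Atm-/- line 2 irradiated (115.7) and WT line 4 irradiated (103.2). Results were therefore also computed without these 2 lines. Cell identity was checked with marker lists: 10 of 11 B-lineage precursor markers, Vpreb1, Igll1, Cd79a and Ebf1 among them, were above the array median on all 42 arrays, and their summed signal ran from 70470 to 128300. The summed signal of 6 T cell markers ran from 88.65 to 355, of 7 myeloid markers from 226 to 831.8, of 3 erythroid markers from 56.03 to 273.9 and of 7 stromal markers from 116.3 to 552.5. Cd3e, Cd3d, Cd4, Col1a1 and Pdgfrb were above the array median on 0 arrays, while the myeloid Csf1r was above it on all 42. Other markers of these lists were above it on part of the arrays. Among them were the T cell marker Cd8a (36 arrays), the erythroid Epor (23), the myeloid Lyz2 (21) and Csf3r (14), and the stromal Sparc (14). The targeted gene was below every WT array on all 6 arrays of the Atm-/- (Atm 176.6 ± 56.9 against 1518 ± 150, SD, n = 6), Mre11A/A, H2ax-/- and Mdc1-/- lines. Trp53bp1 in 53bp1-/- lines and Prkdc in Scid lines overlapped WT, so their probe sets do not check those labels. That Atm probe set was also low in H2ax-/- (320.4 ± 35.3, n = 6) and Mdc1-/- lines (284.6 ± 9.45, n = 6), whereas a second Atm probe set read 841 ± 102 and 785.4 ± 90.8 there and 762.5 ± 41.3 in WT (n = 6 each). As a check of the irradiation, Cdkn1a, the p53-driven cell-cycle inhibitor, rose by 1.76 ± 0.18 (SE, log2 scale, n = 3) in WT (limma, adjusted p = 8.45e-06). Cd40, an activation receptor of B cells, rose by 3.33 ± 0.40 (n = 3) in WT (limma, adjusted p = 3.77e-05). Both gave smaller values in Atm-/- lines (0.33 and -0.25; limma, adjusted p = 0.388 and 0.812). Here and below an SE comes from a variance that the lines of all genotypes share. It is not the spread of the 3 lines of 1 genotype.

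Pik3ip1, the PI3K inhibitor, was lower after radiation in all 18 lines that are not Atm-/-, and higher in all 3 Atm-/- lines, with the first of its 2 probe sets. In the WT lines 1, 3 and 4 the signal went from 673 to 533, from 782 to 591 and from 895 to 791. The Atm-/- lines 1, 2 and 3 went the other way, from 368 to 573, from 434 to 594 and from 828 to 1000. No Atm-/- change overlapped a change of any other genotype. The Scid lines went from 812 to 557, from 625 to 517 and from 923 to 591. In the Mdc1-/- lines the signal went from 845 to 635, from 845 to 541 and from 1094 to 681, the lowest mean change of all genotypes. The changes of the Scid lines overlapped those of WT and of Mdc1-/-, while all Mdc1-/- changes (-0.67 to -0.40) lay below the lowest WT change, that of line 3, by a margin smaller than the spread among lines. The H2ax-/- lines went from 918 to 688, from 904 to 686 and from 1103 to 920. The 53bp1-/- lines went from 783 to 702, from 803 to 666 and from 1031 to 674. The Mre11A/A lines went from 509 to 493, from 725 to 667 and from 806 to 687, the smallest mean decrease.

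**Figure D1:**
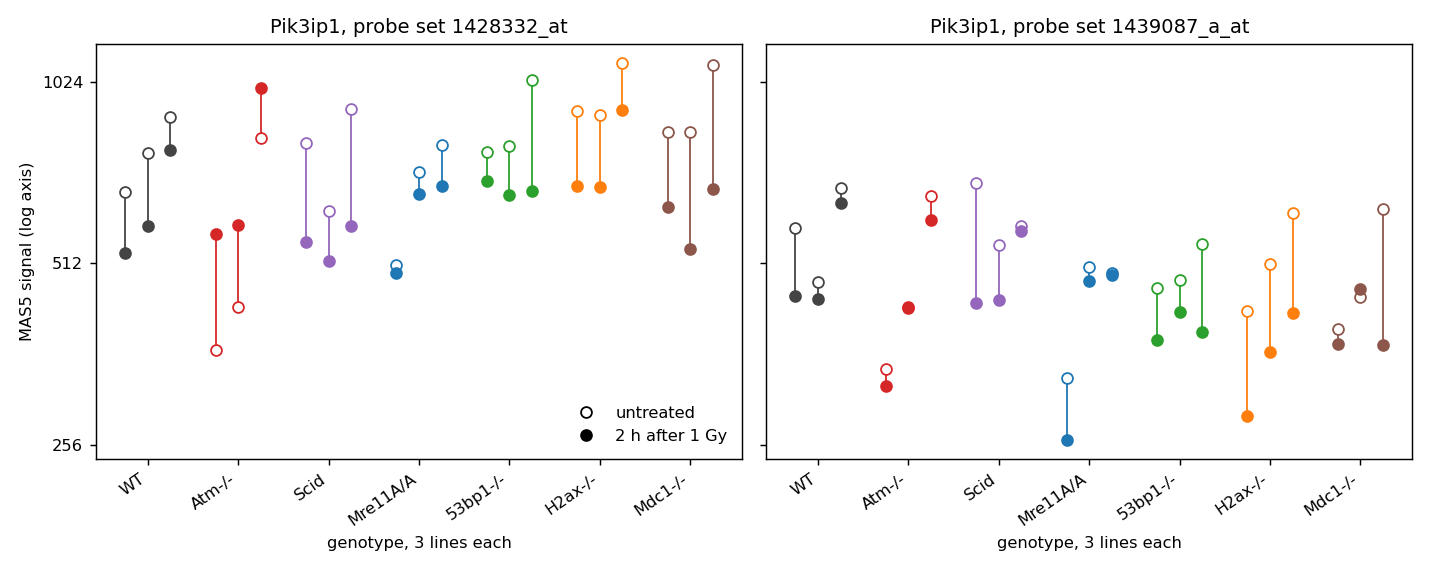
Pik3ip1 signal (MAS5 units, log axis) in each of the 21 lines, open circles untreated and filled circles 2 h after 1 Gy, joined within a line, for both probe sets. With the first probe set the filled circle lies below the open one in 18 lines and above it in the 3 Atm-/- lines, and with the second it lies below in 19 lines.

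On the log2(signal + 16) scale the mean Pik3ip1 change was -0.30 ± 0.11 in WT, 0.44 ± 0.17 in Atm-/-, -0.48 ± 0.19 in Scid and -0.13 ± 0.09 in Mre11A/A lines (SD, n = 3 each). It was -0.34 ± 0.23 in 53bp1-/-, -0.35 ± 0.08 in H2ax-/- and -0.57 ± 0.14 in Mdc1-/- lines (SD, n = 3 each). Over the 18 lines other than Atm-/- the change ranged from -0.67 to -0.05, with a mean of -0.36 ± 0.19 (SD, n = 18). The 2 probe sets of the gene differed for the Atm-/- lines. The second probe set gave changes of -0.09, 0.01 and -0.13 in Atm-/- lines 1, 2 and 3, a mean of -0.07 ± 0.07 (SD, n = 3), where the first gave 0.62, 0.44 and 0.27. The higher Pik3ip1 after radiation in Atm-/- lines thus rests on 1 of 2 probe sets. For the decrease in the other genotypes both probe sets gave negative means in all 6, the second from -0.14 in Mre11A/A to -0.52 in H2ax-/- lines. With the second, 17 of these 18 lines were lower, and Mdc1-/- line 2 was higher by 0.05. The sign of the change was the same with both probe sets in 18 of 21 lines, and their changes correlated at r = 0.40 over 21 lines, which share arrays.

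Untreated Pik3ip1 was ordered by mean signal as H2ax-/- (975 ± 111), Mdc1-/- (928 ± 144), 53bp1-/- (873 ± 138), Scid (787 ± 151), WT (784 ± 111), Mre11A/A (680 ± 153) and Atm-/- lines (543 ± 249; SD, n = 3 each). Neighbours in that order overlapped in every case. The untreated level spanned 3-fold over the 21 lines, from 368 in Atm-/- line 1 to 1103 in H2ax-/- line 3. Atm-/- line 3, at 828, lay within the WT range, and the other 2 Atm-/- lines lay below all WT lines. After radiation the genotype means of the first probe set were closer to each other, from 555 ± 37 in Scid to 764 ± 135 in H2ax-/- lines (SD, n = 3 each), with Atm-/- lines at 722 ± 241 (SD, n = 3). The second probe set ordered the untreated genotypes differently, with Scid highest (612 ± 77), WT next (582 ± 103) and Mre11A/A lowest (443 ± 98; SD, n = 3 each). Its irradiated means, from 358 ± 69 in H2ax-/- to 515 ± 113 in WT lines (SD, n = 3 each), were about as far apart as its untreated ones. In cultures like these, a lower level in each cell and fewer cells with the transcript cannot be told apart.

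Foxo3, the transcription factor at the end of the axis, was higher after radiation in 19 of 21 lines. The WT signal went from 809 to 1712 in line 1, from 753 to 1143 in line 3 and from 958 to 1406 in line 4. The Mdc1-/- lines went from 951 to 1960, from 574 to 1175 and from 1048 to 2606, the highest irradiated value of all lines. Each of these 6 lines ended above its own start by more than the spread among untreated WT lines. In the 53bp1-/- lines the signal went from 696 to 1516, from 1023 to 2365 and from 669 to 1097. The Mre11A/A lines went from 734 to 1134, from 757 to 1153 and from 883 to 1385, so that all 3 moved by nearly the same factor. The Scid lines differed among themselves, going from 732 to 1901, from 819 to 895 and from 666 to 1282. The H2ax-/- lines 1 and 3 went from 582 to 950 and from 695 to 1123, and line 2 went from 457 to 445. The Atm-/- lines had the smallest mean change, going from 399 to 562, from 676 to 761 and from 836 to 799. Scid line 2 and H2ax-/- line 2 changed less than Atm-/- line 1.

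The mean Foxo3 change (log2 scale) was 0.73 ± 0.29 in WT, 1.12 ± 0.16 in Mdc1-/-, 1.00 ± 0.26 in 53bp1-/- and 0.80 ± 0.63 in Scid lines (SD, n = 3 each). In Mre11A/A lines it was 0.62 ± 0.02, in H2ax-/- lines 0.44 ± 0.42 and in Atm-/- lines 0.19 ± 0.27 (SD, n = 3 each). The Atm-/- range, from -0.06 to 0.48, lay below all WT, Mre11A/A, 53bp1-/- and Mdc1-/- lines, and it overlapped the Scid and H2ax-/- ranges. A second probe set gave 0.80 ± 0.09 in WT, 1.01 ± 0.23 in 53bp1-/- and 1.03 ± 0.24 in Mdc1-/- lines (SD, n = 3 each). There H2ax-/- lines had 0.68 ± 0.40 with all 3 lines higher, while Atm-/- lines spread from -0.28 to 1.17. The second probe set was higher in 20 of 21 lines, and the change had the same sign with both probe sets in 18. The third Foxo3 probe set was above the array median on 1 array and was not used. Untreated Foxo3 ran from 578 ± 119 in H2ax-/- to 857 ± 250 in Mdc1-/- lines (SD, n = 3 each), and neighbours in the order of genotypes overlapped in every case.

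**Figure D2:**
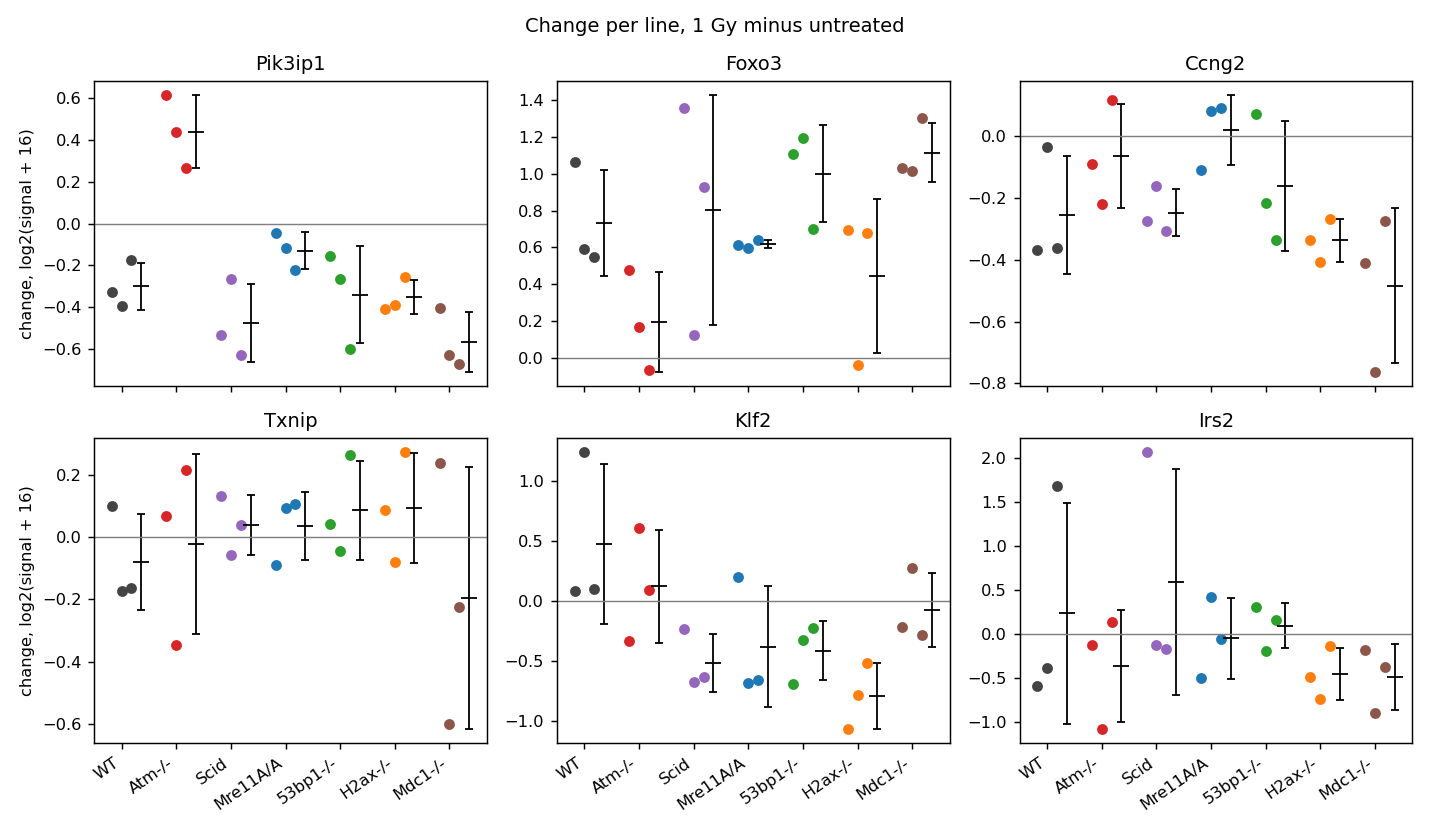
Change of each of the 6 genes in every line (irradiated minus untreated, log2(signal + 16); points are lines, the bar to their right is the mean ± SD of 3 lines). Pik3ip1 is above 0 in the 3 Atm-/- lines alone, Foxo3 is above 0 in 19 of 21 lines, and Txnip lies around 0 in every genotype.

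Ccng2, the growth-arrest cyclin, was lower after radiation in 17 of 21 lines. Its signal went from 5151 to 3985, from 4532 to 4420 and from 3926 to 3055 in WT lines 1, 3 and 4. The Mdc1-/- lines went from 2387 to 1791, from 2338 to 1370 and from 2768 to 2283, and the H2ax-/- lines from 2411 to 1909, from 2546 to 1916 and from 4058 to 3366. The mean changes were -0.26 ± 0.19 in WT, -0.48 ± 0.25 in Mdc1-/-, -0.34 ± 0.07 in H2ax-/- and -0.25 ± 0.08 in Scid lines (log2 scale, SD, n = 3 each). Atm-/- (-0.06 ± 0.17), Mre11A/A (0.02 ± 0.11) and 53bp1-/- lines (-0.16 ± 0.21; SD, n = 3 each) had lines on both sides of 0. Centring each array on its 75th percentile turns the Mre11A/A mean below 0, and so does averaging both Ccng2 probe sets or leaving out Mre11A/A line 2 or 3, while leaving out Atm-/- line 2 turns the Atm-/- mean above 0. The second probe set was lower in 19 of 21 lines, with a mean of -0.18 ± 0.07 in Atm-/- and -0.18 ± 0.16 in Mre11A/A lines (SD, n = 3 each).

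Untreated Ccng2 varied more between genotypes than it changed with radiation. It was ordered as WT (4536 ± 612), Scid (4192 ± 797), Atm-/- (4091 ± 935), Mre11A/A (3969 ± 595), 53bp1-/- (3411 ± 569), H2ax-/- (3005 ± 914) and Mdc1-/- lines (2497 ± 235; SD, n = 3 each). Neighbours in that order overlapped, except that all Mdc1-/- lines (2338 to 2768) lay below all lines of WT, Scid, Atm-/-, Mre11A/A and 53bp1-/-. Only H2ax-/- lines overlapped them. With the second probe set Mdc1-/- lines again had the lowest mean (966 ± 209), but H2ax-/- lines (1417 ± 162) overlapped WT (1360 ± 64; SD, n = 3 each). There the Mdc1-/- lines (762 to 1179) overlapped the 53bp1-/- (796 to 1232) and Atm-/- lines (1053 to 1672). They lay below all lines of the other genotypes.

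Txnip, the brake on glucose uptake, had no common direction. Mean changes ran from -0.19 ± 0.42 in Mdc1-/- to 0.09 ± 0.18 in H2ax-/- lines (log2 scale, SD, n = 3 each), with 12 lines higher and 9 lower. WT lines went from 2291 to 2453, from 2323 to 2057 and from 2509 to 2240. The lowest single change was in Mdc1-/- line 2, from 2437 to 1602, and the highest in H2ax-/- line 3, from 1468 to 1778. The 2 Txnip probe sets did not follow each other in change (r = 0.02 over 21 lines), although their untreated levels did (r = 0.73). With the mean of both probe sets the sign of the mean turns in Scid and Mdc1-/- lines, and leaving out 1 line turns it in Atm-/- (line 2), Scid (line 1), 53bp1-/- (line 3) and Mdc1-/- lines (line 2). The second probe set gave -0.54 ± 0.52 in Atm-/- and 0.24 ± 0.17 in Mdc1-/- lines (SD, n = 3 each). Untreated Txnip was ordered as Scid (2542 ± 114), Atm-/- (2408 ± 195), WT (2374 ± 118) with 53bp1-/- (2374 ± 523), Mre11A/A (2372 ± 504), Mdc1-/- (2071 ± 318) and H2ax-/- lines (1765 ± 278; SD, n = 3 each), and neighbours in that order overlapped. With this probe set all H2ax-/- lines lay below all WT, Atm-/-, Scid and Mre11A/A lines and overlapped the 53bp1-/- and Mdc1-/- lines. With the second probe set Mdc1-/- lines were lowest (700 ± 113), and H2ax-/- lines (741 ± 80, SD, n = 3 each) lay below all Scid lines alone. There the H2ax-/- lines overlapped those of WT, Atm-/- and Mre11A/A.

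Klf2, the quiescence factor, was lower after radiation in 14 of 21 lines and had no common direction over genotypes. All 3 WT lines were higher, from 139 to 148, from 72 to 194 and from 308 to 332, and the mean of 0.48 ± 0.67 (log2 scale, SD, n = 3) rests mainly on line 3. Without WT line 3 that mean is 0.09. All lines of 3 genotypes were lower: H2ax-/- from 244 to 108, from 180 to 98 and from 399 to 273. The Scid lines went from 152 to 126, from 149 to 87 and from 391 to 247. The 53bp1-/- lines went from 352 to 211, from 428 to 339 and from 416 to 353. Their means were -0.79 ± 0.27 in H2ax-/-, -0.51 ± 0.24 in Scid and -0.41 ± 0.25 in 53bp1-/- lines (SD, n = 3 each). Mre11A/A (-0.38 ± 0.50), Mdc1-/- (-0.07 ± 0.31) and Atm-/- lines (0.12 ± 0.47; SD, n = 3 each) had lines on both sides of 0. The mean turns negative in Atm-/- without line 2 (-0.12) and positive in Mdc1-/- without line 3 (0.03).

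Untreated Klf2 spanned 13-fold over the lines, from 72 in WT line 3 to 940 in Mre11A/A line 3. The Mre11A/A lines read 320, 671 and 940, a mean of 644 ± 311, and WT lines 173 ± 121 (SD, n = 3 each), with no overlap. The 53bp1-/- lines followed at 399 ± 41, then Atm-/- at 305 ± 86, H2ax-/- at 274 ± 112, Scid at 231 ± 139 and Mdc1-/- at 197 ± 51 (SD, n = 3 each). Neighbours in that order overlapped in every case. The 53bp1-/- lines (352 to 428) also lay above all WT lines. Klf2 had a single probe set, so a second reading of these levels was not at hand.

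Irs2, the receptor adaptor, gave the lowest signals of the group, and it was above the array median on 32 of 42 arrays. Untreated, the Scid lines read 10, 14 and 67 and the WT lines 107, 148 and 22. The H2ax-/- lines read 161, 231 and 237, and the Mdc1-/- lines 185, 218 and 218. All lines of H2ax-/-, Mdc1-/- and 53bp1-/- (160 to 236) lay above all Scid, Atm-/- (60 to 114) and WT lines. The Mre11A/A lines, from 119 to 158, lay below the first 3 genotypes and overlapped WT. Changes after radiation had no common direction, with 6 lines higher and 15 lower. The positive means in WT (0.23 ± 1.26) and Scid lines (0.59 ± 1.28; log2 scale, SD, n = 3 each) each rest on 1 line. Without WT line 4, which went from 22 to 107, the WT mean was -0.50, and without Scid line 1, from 10 to 94, the Scid mean was -0.15. All lines of H2ax-/- (-0.46 ± 0.30) and Mdc1-/- (-0.49 ± 0.37; SD, n = 3 each) were lower.

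**Figure D3:**
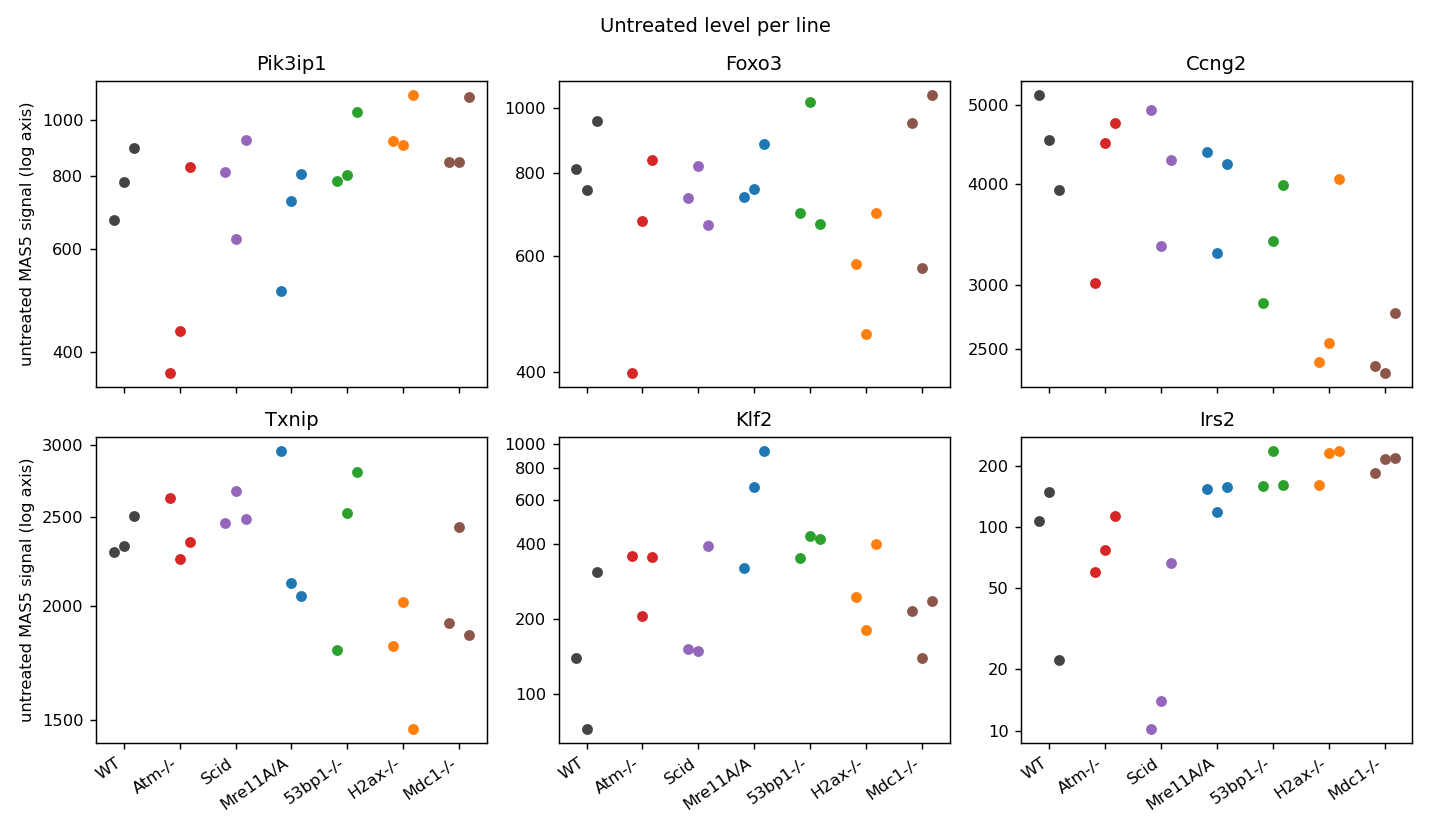
Untreated signal of the 6 genes in every line (MAS5 units, log axis; points are lines, 3 of each genotype). Ccng2 is lowest in the Mdc1-/- lines, Klf2 reaches its highest values in the Mre11A/A lines, and Irs2 is higher in 53bp1-/-, H2ax-/- and Mdc1-/- than in WT, Atm-/- and Scid lines.

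The 6 genes did not move as 1 block. Over the 21 lines the changes of Pik3ip1 and Foxo3 correlated at r = -0.55, and over the 18 lines without Atm-/- at r = -0.36. Within genotypes, after each genotype mean was taken off, the value was -0.01. Pik3ip1 and Ccng2 changes correlated at r = 0.52 over 21 lines and 0.61 over the 18 others, and at 0.13 within genotypes. These are descriptions over lines that share genotypes and arrays. The genes whose change was most like that of Pik3ip1 over the 21 lines, out of 12344 others, were Ptch1 (r = 0.88), Jade1 (0.85), Tiparp (0.85), Hp1bp3 (0.84) and Cenpc1 (0.83). For Ptch1, a Hedgehog receptor, r within genotypes was 0.59, for Jade1 0.62 and for Tiparp 0.57, but for Hp1bp3 0.18 and for Cenpc1 0.04. All 5 had a positive mean in Atm-/- lines (0.10 to 0.51) and a negative one in the others (-0.40 to -0.14). By untreated level the most like genes over 21 lines were Phxr4 (r = 0.87), Trp53inp1 (0.86), Ect2 (0.81), B4gat1 (0.81) and Sirt1 (0.79), with r within genotypes from 0.70 to 0.85.

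The response of WT lines to 1 Gy was read next in 106 other genes of the axis, in 8 lists that were drawn up without the 6 members: Foxo factors, PI3K subunits with receptors and adaptors, Akt and mTOR kinases, their inhibitors, Foxo target genes, other quiescence genes, Txnip relatives with glucose uptake, and Klf2-dependent trafficking genes. In WT, 8 of these 106 genes rose and 10 fell (limma, Benjamini-Hochberg adjusted p below 0.05), where 2% of all 12345 genes were called higher and 1.8% lower. The median change was -0.06 in the 106 genes and 0.01 in all genes (log2 scale). The lists were chosen with earlier results of these data known, so their counts and p-values are not independent of that choice. The same holds for the other genotypes and for the untreated levels below. Cd69, an early activation antigen that retains lymphocytes in tissue, went from 1582 ± 489 to 7479 ± 1010 (SD, n = 3), a rise of 2.26 ± 0.27 (SE; limma, adjusted p = 3.77e-05), higher in 3 of 3 lines. Ddit4, a stress-induced inhibitor of mTOR, rose by 1.17 ± 0.23 (limma, adjusted p = 0.00364), and Ccng1, a p53 target and the paralog of Ccng2, by 0.88 ± 0.16 (limma, adjusted p = 0.00155). Btg2, an antiproliferative p53 target, rose by 0.82 ± 0.21 (limma, adjusted p = 0.025). Among the genes that fell were Rag1 and Rag2, the recombinase subunits that Foxo1 drives, with -1.15 ± 0.18 (limma, adjusted p = 0.000445) and -0.85 ± 0.23 (limma, adjusted p = 0.0389). Both also stand in the list of B-lineage markers. Arrdc2, an arrestin relative of Txnip, changed by -0.93 ± 0.23 (limma, adjusted p = 0.0202). Cdkn1b, a cell-cycle inhibitor and classic Foxo target, changed by -0.53 ± 0.14 (limma, adjusted p = 0.0284), but its other probe set gave 0.12. Of 27 Foxo target genes 2 rose (Bcl2l11, and Ccnd2, a gene that Foxo factors repress) and 7 fell (Cat, Cdkn1b, Cited2, Ctdsp2, Rag1, Rag2 and Sesn3). Of the 2 other Foxo factors 0 were called (0 at an unadjusted p below 0.05). Foxo1 changed by -0.08 ± 0.11 (limma, adjusted p = 0.787) and Foxo4 by 0.01 ± 0.21 (limma, adjusted p = 0.991). Without the replicate block, 1 of the 106 genes was called, and the count was 7 without WT line 1 and 3 without WT line 3. Without line 1 the calls of Ccng1, Ddit4, Btg2, Rag2 and Cdkn1b ended (limma, adjusted p = 0.0622 to 0.165); without line 3 those of Ddit4, Btg2, Arrdc2, Rag2 and Cdkn1b did (0.0518 to 0.283), and without line 4 those of Arrdc2 (0.273), Rag2 (0.0618) and Cdkn1b (0.0654). Rag2 also lost its call without Mre11A/A line 2 (0.0506). Of the other Foxo targets named, Bcl2l11, Ccnd2, Cat, Cited2, Ctdsp2 and Sesn3 each lost the call in at least 1 of the 21 fits that left out 1 line, Ctdsp2 keeping it in 7. With the mean of all kept probe sets Cat (limma, adjusted p = 0.287), Ctdsp2 (0.276) and Sesn3 (0.105) lost the WT call, and so did Cdkn1b.

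In Atm-/- lines 1 of the 106 genes was called higher and 0 lower (limma; 15 at an unadjusted p below 0.05), where 0.527% of all genes were called higher and 0.81% lower. The gene called was Cat, encoding catalase, a Foxo target of stress defense. It went from 4663 ± 1570 to 6144 ± 1510 (SD, n = 3), a rise of 0.42 ± 0.09 (SE; limma, adjusted p = 0.0203) in 3 of 3 lines. Its other probe set gave -0.26, and without Atm-/- line 1 the adjusted p was 0.146. Leaving out line 1 or line 2 raised the number called to 3, and 0 were called without the replicate block. Foxo1 was higher in all 3 lines, by 0.24 ± 0.11 (limma, adjusted p = 0.302).

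The difference between the Atm-/- and the WT response was tested directly. It was called for 6 of the 106 genes, 2 in the positive and 4 in the negative direction (limma, adjusted p below 0.05), against 2.09% of all genes in either direction. Cd69 changed by 0.50 ± 0.39 in Atm-/- and 2.26 ± 0.46 in WT lines (SD, n = 3 each), a difference of -1.76 ± 0.38 (SE; limma, adjusted p = 0.018). Btg2 changed by -0.62 ± 0.85 and 0.82 ± 0.53 (SD, n = 3 each), a difference of -1.44 ± 0.29 (SE; limma, adjusted p = 0.0132), though the 2 groups of lines overlapped. Txnrd1, the thioredoxin reductase whose partner Txnip binds, differed by -0.74 ± 0.18 (limma, adjusted p = 0.0332), and Ccnd2, a cyclin that Foxo factors repress, by -0.49 ± 0.13 (limma, adjusted p = 0.0495). Cat differed by 0.76 ± 0.12 (limma, adjusted p = 0.00222), from 0.42 ± 0.29 in Atm-/- and -0.35 ± 0.21 in WT lines (SD, n = 3 each). Sesn1, a stress-induced inhibitor of mTOR, differed by 0.84 ± 0.21 (limma, adjusted p = 0.0333). Their other probe sets did not all agree in sign: that of Cat gave -0.23, and 3 of Sesn1 gave from -0.40 to 0.43. With the mean of all kept probe sets of each gene, 2 of the 106 genes were called, and Cat, Sesn1, Txnrd1 and Ccnd2 lost their calls.

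The count for Atm-/- against WT was 13 without WT line 4, 1 without WT line 1, 1 without WT line 3, and 0 without the replicate block. Without the 2 lines of high array median, 11 were called. Btg2 lost its call without WT line 1 (limma, adjusted p = 0.0659) or WT line 3 (0.108). Cd69 lost its call without WT line 1 (limma, adjusted p = 0.0643), WT line 3 (0.129) or Atm-/- line 3 (0.0572). Sesn1 lost it without WT line 1 (0.0715), WT line 3 (0.187), Atm-/- line 1 (0.137) or line 2 (0.0574), and Txnrd1 without WT line 1 (0.114), WT line 3 (0.131), Atm-/- line 1 (0.0689) or line 3 (0.108). Ccnd2 lost it in 17 of 21 fits that left out 1 line, all but WT line 4, Atm-/- line 3, Scid line 1 and 53bp1-/- line 2, with WT line 3 giving the highest adjusted p (0.314), while Cat kept its call in all 21 (at most 0.0351). The Cat call did not hold with the mean of its kept probe sets.

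In Scid lines 9 of the 106 genes rose and 3 fell (limma, adjusted p below 0.05), where 1.73% of all genes were called higher and 0.956% lower. Cd69 rose by 1.56 ± 0.27, Btg2 by 1.42 ± 0.21, Ccng1 by 1.27 ± 0.16 and Ddit4 by 1.00 ± 0.23 (SE, n = 3; limma, adjusted p = 0.00119, 0.000216, 3.07e-05 and 0.016). The Scid lines were uneven in Cd69, with changes from 0.26 to 2.78 and an SD of 1.26 (n = 3). Rbl2, a pocket protein of quiescent cells, Ulk1, which starts autophagy, and Txnrd1 rose as well, by 0.55, 0.66 and 0.80 (limma, adjusted p = 0.00639, 0.00596 and 0.000459). Rag1 fell by 1.05 ± 0.18 (limma, adjusted p = 0.00107). Hk2, the hexokinase that traps glucose in the cell, changed by -0.34 ± 0.09 and Cdkn2d, an inhibitor of cyclin D kinases, by -0.34 ± 0.08 (limma, adjusted p = 0.0346 and 0.0196). Without Scid line 1 the count was 2, and the calls of Cd69 (0.115), Ddit4 (0.294), Rbl2 (0.179), Ulk1 (0.179), Txnrd1 (0.0539), Rag1 (0.0703), Hk2 (0.399) and Cdkn2d (0.375) ended. With the mean of its probe sets Txnrd1 lost its call too (limma, adjusted p = 0.201). Without line 3, those of Ddit4 (0.115), Hk2 (0.134) and Cdkn2d (0.0644) did, without line 2 that of Hk2 (0.0553), and without the replicate block 0 genes were called.

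The Mre11A/A lines had few calls, with 1 of the 106 genes higher and 0 lower (limma; 10 at an unadjusted p below 0.05), where 0.0729% of all genes were called higher and 0% lower. Ccng1 went from 7731 ± 2190 to 13450 ± 3140 (SD, n = 3), a rise of 0.81 ± 0.16 (SE; limma, adjusted p = 0.0476) in 3 of 3 lines. Its other 2 probe sets gave 0.96 and 1.00. The call was kept in 8 of 21 fits that left out 1 line, those without WT line 1 or 4, Atm-/- line 2 or 3, Scid line 2 or any H2ax-/- line (limma, adjusted p at most 0.569, without Mre11A/A line 2), and it ended with a pseudocount of 1 or 64 and without the replicate block.

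In 53bp1-/- lines 8 of the 106 genes rose and 2 fell (limma, adjusted p below 0.05), where 1.52% of all genes were called higher and 0.421% lower. Cd69 rose by 1.73 ± 0.27, Ccng1 by 1.36 ± 0.16, Ddit4 by 1.29 ± 0.23 and Btg2 by 0.96 ± 0.21 (SE, n = 3; limma, adjusted p = 0.000473, 1.88e-05, 0.00174 and 0.0108). Arrdc3, another arrestin relative of Txnip, rose by 0.67 and Rb1, the retinoblastoma protein, by 0.42 (limma, adjusted p = 0.0215 and 0.00703). Rag1 changed by -0.85 ± 0.18 and Cited2, a Foxo target, by -0.36 ± 0.09 (limma, adjusted p = 0.00978 and 0.0304). Leaving out 53bp1-/- line 1, 2 or 3 left 6, 2 or 4 genes called, and 0 were called without the replicate block. Btg2 (limma, adjusted p = 0.0913 to 0.104) and Cited2 (0.103 to 0.422) lost their calls without any 1 of the 3 lines, as did Arrdc3 (0.0995 to 0.212), Rb1 without line 1 (0.153) or line 2 (0.0866), Ddit4 without line 2 (0.0755), and Rag1 without line 2 (0.166) or line 3 (0.156).

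In H2ax-/- lines 6 of the 106 genes rose and 4 fell (limma, adjusted p below 0.05), where 1.05% of all genes were called higher and 0.932% lower. Over all genes 130 were higher and 115 lower, and 133 and 61 with each array centred on its 75th percentile. Cd69 rose by 2.19 ± 0.27, Ddit4 by 1.05 ± 0.23, Bcl2l11 by 0.88 ± 0.17 and Ccng1 by 0.75 ± 0.16 (SE, n = 3; limma, adjusted p = 6.35e-05, 0.0137, 0.00424 and 0.00931). The H2ax-/- lines were uneven in Ddit4, with changes from 0.12 to 1.61. Their Ccng1 signals ran from 2872 to 11860 untreated and from 3023 to 25340 irradiated. Bcl2l11 encodes Bim, a death-promoting Foxo target, and its 4 other probe sets gave 0.58 to 0.77. Rag1 changed by -1.17 ± 0.18 and Rag2 by -1.11 ± 0.23 (limma, adjusted p = 0.000569 and 0.0093). Rptor, the scaffold of mTOR complex 1, changed by -0.47 ± 0.11 and Cdkn2d by -0.44 ± 0.08 (limma, adjusted p = 0.0223 and 0.00262). The count was 3 without H2ax-/- line 1, 3 without line 3 and 1 without the replicate block. Without line 1 the calls of Ccng1 (0.271), Ddit4 (0.285), Rag2 (0.132), Rptor (0.202) and Cdkn2d (0.0664) ended, without line 2 those of Rag2 (0.0966) and Rptor (0.116), and without line 3 those of Bcl2l11 (0.182), Ccng1 (0.246), Ddit4 (0.314), Rptor (0.136) and Cdkn2d (0.0534).

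The Mdc1-/- lines had the most calls, with 14 of the 106 genes higher and 10 lower (limma, adjusted p below 0.05), where 3.18% of all genes were called higher and 2.51% lower. Cd69 went from 1223 ± 240 to 8009 ± 423 (SD, n = 3), a rise of 2.71 ± 0.27 (SE; limma, adjusted p = 1.38e-06). Ddit4 rose from 1874 ± 206 to 5395 ± 1230 (SD, n = 3; limma, adjusted p = 0.000128), Ccng1 by 1.22 ± 0.16 and Btg2 by 1.19 ± 0.21 (SE; limma, adjusted p = 1.79e-05 and 0.000542). Of 22 quiescence genes 6 rose (Btg1, Btg2, Ccng1, Rb1, Rbl2 and Tob1) and 1 fell (Cdkn2d), of which Rb1 and Tob1 kept their calls in 19 of 21 fits that left out 1 line. Rag1 changed by -1.41 ± 0.18 and Rag2 by -1.35 ± 0.23 (limma, adjusted p = 1.66e-05 and 0.000449). On the PI3K side, Gab1, an adaptor, changed by -0.63 ± 0.16 (limma, adjusted p = 0.0141) and Sgk1, an Akt-like kinase, by -0.70 ± 0.19 (limma, adjusted p = 0.0266). The 2 other probe sets of Gab1 gave -0.09 and -0.01. The count was 15 without Mdc1-/- line 2, 12 without line 3 and 3 without the replicate block. Sgk1 lost its call without any 1 of the 3 lines (limma, adjusted p = 0.0722 to 0.24), and Gab1 without line 2 (0.17) or line 3 (0.148).

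**Figure D4:**
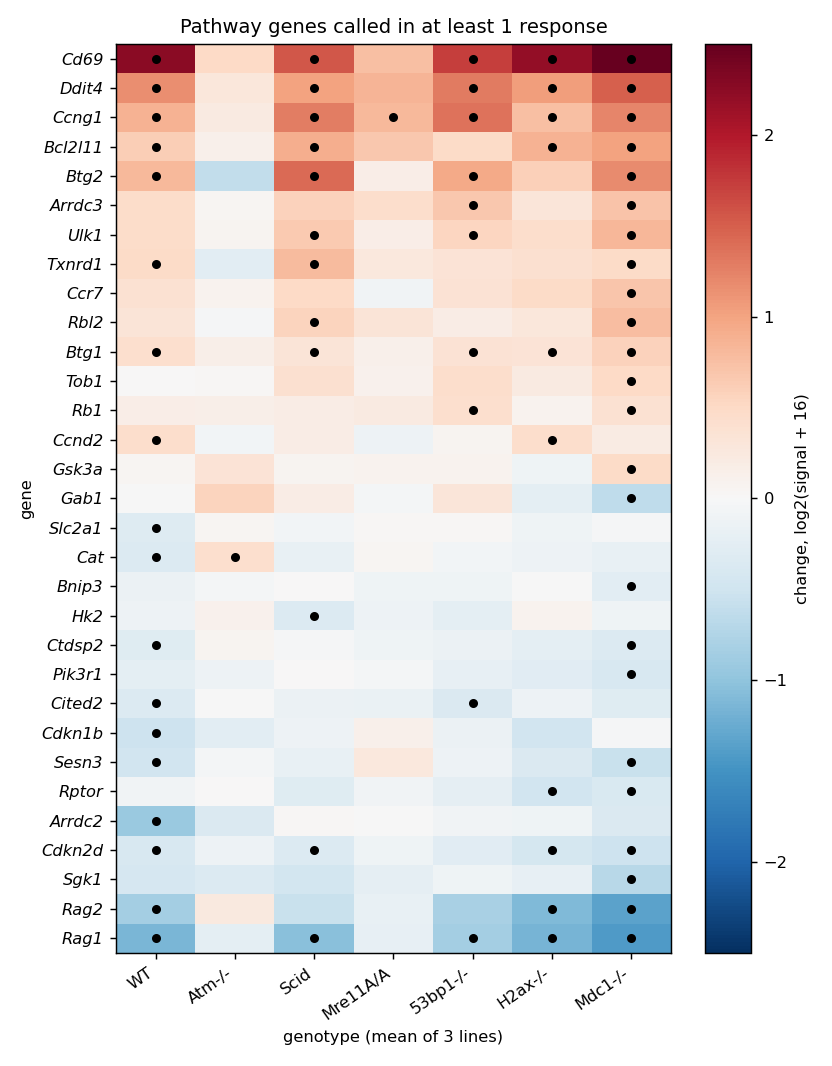
Mean change after 1 Gy (log2(signal + 16), colour; rows are genes, columns the 7 genotypes) of the 31 pathway genes called in at least 1 genotype; a dot marks a call (limma, adjusted p below 0.05). Cd69, Ddit4 and Ccng1 are positive and Rag1 is negative in all 7 columns, and the Atm-/- column has a single dot, at Cat.

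Differences from the WT response were called for 0 of the 106 genes in each of the other 5 mutants (limma). At an unadjusted p below 0.05 the numbers were 8 for Scid, 16 for Mre11A/A, 10 for 53bp1-/-, 3 for H2ax-/- and 9 for Mdc1-/-. Over all genes 0.0081% were called for Scid, 0.0081% for Mre11A/A and 0% for each of the other 3. An F test over the 7 genotypes called 4 of the 106 genes, against 0.956% of all genes. These were Btg2 (limma, adjusted p = 0.00533), Cd69 (0.0122), Cat (0.0196) and Rag1 (0.037). Rag1 changed by -1.41 ± 0.37 in Mdc1-/- and -1.15 ± 0.46 in WT lines, but by -0.25 ± 0.30 in Atm-/- and -0.20 ± 0.15 in Mre11A/A lines (SD, n = 3 each). Btg2 had its highest mean in Scid (1.42 ± 0.25) and its lowest in Atm-/- lines (-0.62 ± 0.85; SD, n = 3 each). The count of this F test was 2 without Atm-/- line 1, 9 without WT line 4, 7 without H2ax-/- line 1, 7 without H2ax-/- line 2 and 0 without the replicate block, and 1 gene was called for Mre11A/A against WT without Scid line 1. Without Atm-/- line 1 the calls of Cat (0.0893) and Rag1 (0.0914) ended, and that of Rag1 ended also without WT line 1, Atm-/- line 2, any Mre11A/A line, 53bp1-/- line 3, H2ax-/- line 3, or Mdc1-/- line 2 or 3 (0.0523 to 0.0978). With the mean of all kept probe sets Cat (limma, adjusted p = 0.707) and Rag1 (0.0647) lost theirs.

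Untreated levels were compared with WT by the same model on the 21 untreated arrays. For Atm-/- 0 of the 106 genes were called (15 at an unadjusted p below 0.05), where 0.0081% of all genes were called higher and 0.0081% lower. For Scid 0 of 106 were called as well (14 unadjusted), where 0.081% of all genes were higher and 0.13% lower, and 1 gene was called without Scid line 3. In Mre11A/A lines 2 of 106 genes were higher and 2 lower (limma, adjusted p below 0.05), where 1.14% of all genes were higher and 0.826% lower. In 53bp1-/- lines 1 gene was higher and 1 lower, where 1.18% of all genes were higher and 1.02% lower. In H2ax-/- lines 2 were higher and 0 lower, where 1.91% were higher and 1.23% lower. In Mdc1-/- lines 1 was higher and 3 lower, where 2.48% were higher and 1.75% lower.

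Pik3ca, the catalytic subunit of PI3K that Pik3ip1 can bind, was the gene called in 4 of these genotypes. Its signal was 500 ± 170 in WT, 1500 ± 305 in Mre11A/A, 1434 ± 90 in 53bp1-/-, 1472 ± 103 in H2ax-/- and 1225 ± 142 in Mdc1-/- lines (SD, n = 3 each). The differences from WT were 1.58, 1.54, 1.57 and 1.31 (log2 scale, SE 0.26 each; limma, adjusted p = 0.00232, 0.00314, 0.00211 and 0.00707). Lines of these 4 genotypes (1065 to 1850) lay above all WT, Atm-/- and Scid lines (234 to 696). The other 5 Pik3ca probe sets did not show this size of difference, with values from -0.39 to 0.82 for Mre11A/A, and with the mean of all kept probe sets the call was lost in all 4 genotypes (limma, adjusted p = 0.111 to 0.213). Pik3cd, the leukocyte catalytic subunit, was 7324 ± 1230 in Mre11A/A and 3941 ± 1050 in WT lines (SD, n = 3 each; limma, adjusted p = 0.0265), with its other 4 probe sets from -0.37 to 1.02. Bcl2l11 was lower in Mre11A/A (-1.23 ± 0.27) and Mdc1-/- lines (-1.11 ± 0.27; SE; limma, adjusted p = 0.0233 and 0.0267), and its other 4 probe sets were negative too. Gsk3b, a kinase that Akt inhibits, was lower in the same 2 genotypes, by -0.78 ± 0.17 and -0.66 ± 0.17 (limma, adjusted p = 0.0262 and 0.0393), with 2 of 5 other probe sets of opposite sign in each. Mxd4, an antagonist of Myc, was lower in 53bp1-/- (-1.53 ± 0.37; limma, adjusted p = 0.0382), Rictor, of mTOR complex 2, higher in H2ax-/- (0.85 ± 0.18; limma, adjusted p = 0.0183) and Pdpk1, which activates Akt, lower in Mdc1-/- lines (-0.47 ± 0.11; limma, adjusted p = 0.0189). Rictor had 2 of 4 other probe sets of opposite sign, and Pdpk1 its 1 other, at 0.81.

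Except for Pik3ca, each of these untreated calls ended without at least 1 line. WT line 3 was among those lines for Pik3cd (limma, adjusted p = 0.15), Bcl2l11 (0.0657 in Mre11A/A and 0.0589 in Mdc1-/-), Gsk3b (0.128 and 0.142), Mxd4 (0.117), Rictor (0.0695) and Pdpk1 (0.0836). Without WT line 3 the counts were 1 in Mre11A/A, 1 in 53bp1-/-, 1 in H2ax-/- and 1 in Mdc1-/-. Without WT line 1 Bcl2l11 lost both calls (0.0757 in Mre11A/A, 0.0727 in Mdc1-/-), as did Gsk3b (0.0895 and 0.101) and Pik3cd its call (0.0583), and the Mre11A/A count was 1. Without WT line 4 Bcl2l11 lost both calls (0.0595 and 0.0791) and Mxd4 its own (0.147), and the 53bp1-/- count was 1. Leaving out Mre11A/A line 1, 2 or 3 gave a count of 2, and leaving out Mdc1-/- line 2 or 3 a count of 1. For 53bp1-/-, leaving out its line 1 left 1 call and leaving out its line 3 gave 4, and for H2ax-/- leaving out its line 2 or 3 left 1. Among the mutant lines, Pik3cd lost its call without Mre11A/A line 1 or 3, Gsk3b without Mre11A/A line 2 or 3 and without any Mdc1-/- line or H2ax-/- line 2, and Bcl2l11 without Mre11A/A line 1 or 2 and Mdc1-/- line 2 or 3. Mxd4 lost it without 53bp1-/- line 1 or 2 or Scid line 3, Rictor without H2ax-/- line 2 or 3, and Pdpk1 without Mdc1-/- line 2 or 3. Lines of other genotypes enter through the shared variance: the Mdc1-/- count was 8 without Atm-/- line 1, 7 without Atm-/- line 3 and 8 without Scid line 1, and the 53bp1-/- count 1 without Scid line 3.

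The F test of untreated levels over the 7 genotypes called 16 of the 106 genes, against 12.3% of all genes. The smallest adjusted p-values were those of Pik3ca (limma, 1.67e-05), Ddit4 (0.00703), Pik3cd (0.00738), Inpp5d (0.0121), Pik3r1 (0.015) and Rictor (0.0187), and all 6 kept their call in each of 21 fits that left out 1 line. With the mean of all kept probe sets Pik3cd (limma, adjusted p = 0.0519), Inpp5d (0.0646) and Rictor (0.261) lost it. Untreated Ddit4, the mTOR inhibitor, was highest in Scid (6833 ± 2390) and lowest in Mdc1-/- lines (1874 ± 206; SD, n = 3 each). Inpp5d, the lipid phosphatase SHIP that opposes PI3K, was highest in Mdc1-/- (7112 ± 719) and lowest in Atm-/- lines (4188 ± 689; SD, n = 3 each). Pik3r1 was highest in Scid (1009 ± 102) and lowest in H2ax-/- lines (630 ± 35; SD, n = 3 each). Untreated Foxo1, the main Foxo factor of B-cell precursors, ran from 2380 ± 48 in Atm-/- to 3672 ± 390 in Mre11A/A lines (SD, n = 3 each; limma F test, adjusted p = 0.252). Foxo4 ran from 206 ± 33 in WT to 281 ± 20 in H2ax-/- lines (SD, n = 3 each; limma F test, adjusted p = 0.667).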

How the data were processed

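Affymetrix arrays of 21 mouse pre-B lines, untreated and 2 h after 1 Gy, were analysed. The deposited values are linear intensities, made by the authors with MAS5 per the submitters' processing notes (version not given in the sources used here); on each array their 2% trimmed mean is 500. MAS5 subtracts a mismatch signal, which makes low values noisy, and arrays have no read depth, so their number limits the precision. Of 45101 probe sets, 34945 had 1 gene symbol in the platform annotation, 932 several and 9160 none, and 64 were controls. Probe sets above their array's median on at least 3 of 42 arrays were kept, and the one with the highest mean stood for its gene, which gave 12345 genes. Values were log2(signal + 16), so changes of low genes are understated. Responses were tested with limma 3.58.1 (R 4.3.3; eBayes with trend) on the 21 per-line differences (14 residual degrees of freedom), untreated levels on the 21 untreated arrays, with Benjamini-Hochberg adjustment over all genes and a threshold of 0.05. "Called" means past it. Fits were tested on simulated data.

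The series' design text compares each line with itself. Deviations of arrays with the same number from their group means correlated at 0.359 to 0.648 in 21 pairs, and at -0.448 to -0.0552 in 42 pairs of different numbers within a genotype. Deviations within a group sum to 0, so positive same-number pairs make the other pairs negative, and these are no separate support for the pairing. The labels do not say that lines are separate animals, so p-values measure the spread between lines.

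The members and the 8 pathway lists were chosen with earlier results of these data known. Named were all members, the Foxo factors, and per comparison up to 4 higher and 4 lower pathway genes with the largest change among those called whose lines all moved one way or whose groups did not overlap, and up to 6 genes of each F test. Other called genes named beside them were chosen after their values were seen. Of 116 pathway genes listed, 106 were tested, and the others are not reported here. Alternatives were other pseudocounts, filters, scalings and probe set rules, no trend, no replicate block, and leaving out each line. Promoter sequences are RefSeq's. Python 3.11.15, pandas 2.3.3, numpy 2.4.6 and matplotlib 3.10.9 read sequences and drew figures.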

Additional observations from a re-analysis of the deposited data

Results flagged for a closer look

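Pik3ip1 moved one way in every line of one genotype and the opposite way in every line of another. The mean change in Atm-/- minus that in WT lines was 0.74 (log2 scale). Against Atm-/- lines, the mean change was lower by -0.92 in Scid, -0.57 in Mre11A/A, -0.78 in 53bp1-/-, -0.79 in H2ax-/- and -1.01 in Mdc1-/- lines. Pik3ip1 was chosen for these differences, so they are a description, not tested independently of that choice. They rest on 1 of 2 probe sets of the gene. Klf2 was higher in all 3 WT lines and lower in all lines of 3 mutants, with mean changes minus WT of -0.99 in Scid, -0.89 in 53bp1-/- and -1.27 in H2ax-/- lines. These too are a description, not tested independently of the choice of the gene.

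Among the pathway genes, the response of Atm-/- lines minus that of WT lines differed for Cd69 (-1.76), Btg2 (-1.44), Txnrd1 (-0.74), Ccnd2 (-0.49), Sesn1 (0.84) and Cat (0.76). The other Cat probe set gave -0.23, and 3 others of Sesn1 gave from -0.40 to 0.43. With the mean of all kept probe sets the calls of Cat, Sesn1, Txnrd1 and Ccnd2 ended. The F test over genotypes gave limma adjusted p-values of 0.00533 for Btg2, 0.0122 for Cd69, 0.0196 for Cat and 0.037 for Rag1. Cat and Rag1 lost this call with the mean of all kept probe sets. The lists that hold these genes were chosen with earlier results of these data known. The causes of these differences were not tested.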

How the results depend on the processing

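Of 1692 checks of named genes in fits with the line kept together, 1509 kept direction and side of the threshold, 182 kept direction and lost the call, and 1 reversed: untreated Pdpk1 in Mdc1-/- against WT was 0.17 (limma, adjusted p = 0.437) with the mean of all kept probe sets. Where 1 line was left out, the direction was fixed in advance. Genes with a direction were named only where all lines moved one way or groups did not overlap. Of those checks 1050 kept the call and 126 lost it. In 27 of 66 named calls no left-out line ended the call. Of 1316 checks of members' mean changes 1307 moved by less than 1 SD. For the 882 that left out 1 line this was fixed in advance. Leaving out 1 line cannot move a genotype mean by 1 SD of its lines. Fits without trend or without the replicate block (42 checks each) do not alter these means, so most of the 1307 are no sign of stability. In 22 checks the mean changed sign. These concerned Pik3ip1 in Atm-/-, Ccng2 in Atm-/- and Mre11A/A, and Klf2 in Atm-/- and Mdc1-/- lines. They also concerned Txnip in Atm-/-, Scid, 53bp1-/- and Mdc1-/-, and Irs2 in WT, Scid, Mre11A/A and 53bp1-/- lines. The cause of these shifts was not tested.

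Without the replicate block the pathway genes called were 1 for the WT response, 0 for Atm-/-, Scid, Mre11A/A and 53bp1-/-, 1 for H2ax-/-, 3 for Mdc1-/-, 0 for Atm-/- against WT and 0 for the F test of responses; of 44 named calls 40 were lost. With a random replicate block over all 42 arrays, untreated calls were 1 for Scid, 5 for 53bp1-/-, 10 for Mdc1-/- and 32 for the F test.

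Other settings moved counts by over 1.5 times as follows. The Mre11A/A response had 0 calls with a pseudocount of 1 or 64, with centring on the 75th percentile and without trend. The F test of responses had 7 calls with a pseudocount of 64, 7 with genes above the median on at least 21 arrays, 8 with quantile normalization and 0 without trend. With the mean of all kept probe sets, calls were 2 for Atm-/- against WT, 1 each for untreated Mre11A/A, 53bp1-/-, H2ax-/- and Mdc1-/-, and 10 for the untreated F test. Without trend, calls were 8 for WT, 0 for Atm-/-, 4 for 53bp1-/-, 4 for H2ax-/-, 1 for Atm-/- against WT and 1 for untreated 53bp1-/-. Without Atm-/- line 2 and WT line 4, calls were 3 for Atm-/-, 11 for Atm-/- against WT and 1 for untreated 53bp1-/-.

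Leaving out each line in turn gave 3 to 19 calls for WT, 1 to 3 for Atm-/-, 2 to 16 for Scid, 0 to 1 for Mre11A/A, 2 to 12 for 53bp1-/-, 3 to 11 for H2ax-/- and 12 to 26 for Mdc1-/- responses. It gave 1 to 13 for Atm-/- and 0 to 1 for Mre11A/A against WT, and 2 to 9 for the F test of responses. Untreated, it gave 0 to 1 for Scid, 1 to 5 for Mre11A/A, 1 to 4 for 53bp1-/-, 1 to 3 for H2ax-/-, 1 to 8 for Mdc1-/- and 12 to 20 for the F test. Lines with lower Pik3ip1 numbered 17 to 18 and lines with higher Foxo3 18 to 19, counts that leaving out 1 line can lower by at most 1. Irs2, above the array median on 32 of 42 arrays, is the member most limited by low signal.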
